A study of Rattus norvegicus with 9 samples.

Results

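Sult1a1 (Ensembl identifier ENSRNOG00000019342) encodes phenol sulfotransferase, and it is 1 of the 29516 gene identifiers counted in RNA-seq libraries of rat cerebral cortex. It was chosen from these same counts for its higher level at 28 months than at 6 or 12 months, so its levels and its changes with age are given below as a description, with no test. The rats were males of the BN strain, substrain BN/SsNOlaHSD, with free access to food, and were killed at 6, 12 or 28 months of age. Each library holds the total RNA of 2 rats pooled together and depleted of ribosomal RNA, and 3 libraries are labelled for each age. Replicates are therefore pools, the difference between single rats cannot be seen, and p-values measure the spread between pools. The counts deposited as 6 months sample 2 and as 12 months sample 3 are identical, with 0 gene identifiers differing, and the age of this library cannot be told from the labels. It is called the shared library below and was counted once, which gives 8 independent libraries in all, and it was left out of both ages in the fits, which leaves 2, 2 and 3 libraries at 6, 12 and 28 months.

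Cytosolic sulfotransferases move a sulfonate group from the donor PAPS onto hydroxyl or amino groups of small molecules, which makes most of them more water soluble and easier to excrete. Sult1a1 prefers small phenols and acts on drugs, dietary phenols, catechols and some hormones, and a few pro-carcinogens become reactive when it sulfates them. It is best known as a liver enzyme of phase II metabolism, and in brain it is one of the enzymes that can sulfate amine transmitters and their metabolites.

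The stretch of Sult1a1 that the study's qPCR assay amplifies is shown so that the transcript counted here can be identified. It spans 95 bases, positions 519 to 613 as the study's assay list numbers them, with 56.8% G or C, and the capitals mark the sites of the forward primer (19 bases) and of the reverse primer (20 bases) at its ends.
Sult1a1 amplicon: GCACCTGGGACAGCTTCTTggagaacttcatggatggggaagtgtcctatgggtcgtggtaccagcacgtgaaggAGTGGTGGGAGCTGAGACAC
The counts cover the whole gene and not this stretch alone. The position of the gene in the genome is not given here, since no annotation of the build used for the counts was at hand.

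The libraries hold 6513376 to 9196951 gene reads each, of which 1 very abundant gene (ENSRNOG00000043866) accounts for 44.0 to 52.4%, so that the remaining genes share 3431328 to 4891332 reads. Sult1a1 took 743 reads over the 8 libraries, 471 (63.4%) of them in the 3 libraries of 28 months. In the younger libraries 1 gene read in 126038 to 174019 was from Sult1a1, and at 28 months 1 in 46524 to 47785.

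At 28 months Sult1a1 had 181, 140 and 150 reads in samples 1, 2 and 3. At 6 months it had 62 reads in sample 1 and 50 in sample 3, and at 12 months 53 in sample 1 and 58 in sample 2. The shared library had 49 reads. As normalised counts, given as CPM after TMM scaling, these are 22.3, 19.3 and 22.8 at 28 months, 6.75 and 5.73 at 6 months, 7.55 and 7.97 at 12 months, and 6.83 in the shared library. Every library of 28 months lay above every younger one, and the lowest at 28 months was 2.43 times the highest of the younger libraries. The exact Poisson 95% intervals, which cover counting error only, begin at 16.3 CPM in 28 months sample 2 and end at 10.3 CPM in 12 months sample 2, so that they do not overlap across this gap.

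**Figure D1:**
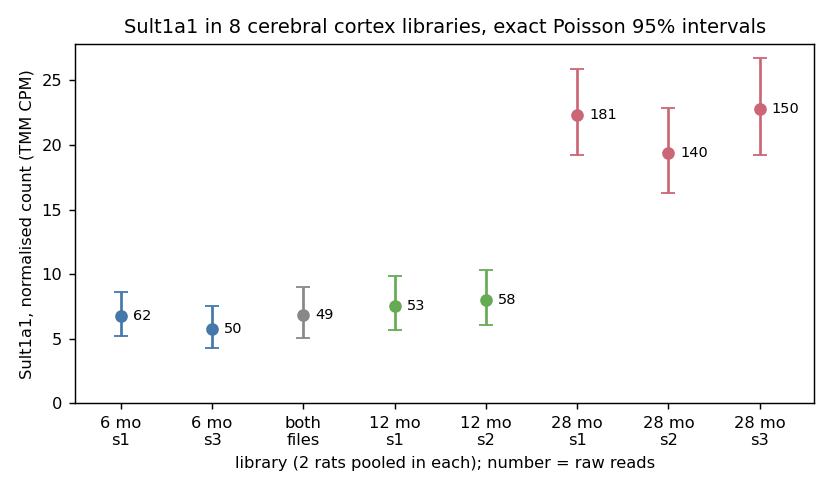
Sult1a1 in each of the 8 independent libraries as normalised counts (y axis, TMM CPM), by age (x axis), with exact Poisson 95% intervals as bars and the raw reads beside each point. Blue points are 6 months, green 12 months, red 28 months, and the grey point is the shared library, deposited under 6 and 12 months. The 3 libraries of 28 months sit between 19.3 and 22.8, above all younger libraries, which sit between 5.73 and 7.97.

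In order of level the libraries run from 6 months sample 3, 6 months sample 1, the shared library, 12 months sample 1 and 12 months sample 2 to 28 months sample 2, sample 1 and sample 3. Within the 5 younger libraries the counting intervals all overlap, and so do those within the 3 libraries of 28 months. The only neighbours in this order whose intervals do not overlap are 12 months sample 2 and 28 months sample 2. Sult1a1 was chosen for a difference of this kind, so the lack of overlap describes it and tests nothing. Both libraries of 12 months were above both of 6 months, but the means, 7.76 and 6.24 CPM, differ by a factor of 1.24 and the counting intervals of these libraries overlap.

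The mean was 21.5 ± 1.86 CPM at 28 months (SD, n = 3) and 6.97 ± 0.860 CPM in the younger libraries (SD, n = 5), a ratio of 3.08. Against the 2 libraries of 6 months the ratio was 3.44, and against the 2 libraries of 12 months 2.77. The libraries of 1 group varied little. The coefficient of variation was 8.66% at 28 months, where counting error alone gives from 7.43 to 8.45%, and 12.3% in the younger libraries, where it gives from 12.7 to 14.3%. The chi-square of the counts per degree of freedom, which is near 1 where libraries differ by counting error alone, was 1.16 at 28 months and 0.854 in the younger libraries. Choosing a gene by its difference between ages favours little spread within groups, so these values are a description. With 3 and 5 libraries, and ages mixed among the younger, they cannot show that pools do not differ.

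In the edgeR fits Sult1a1 had a log2FC (older minus younger) of 0.31 (SE 0.24) between 6 and 12 months, 1.78 (SE 0.21) between 6 and 28 months and 1.47 (SE 0.20) between 12 and 28 months. The comparisons to 28 months share the 28-month libraries. The median log2FC of all genes tested was -0.01, -0.01 and 0.01 in the same order. A larger log2FC was found for 3886 of 15966 genes from 6 to 12 months, for 156 of 16042 from 6 to 28 months and for 250 of 15840 from 12 to 28 months. As background, edgeR's quasi-likelihood test at an FDR of 0.05 called 191 genes (1.2%) from 6 to 12 months, 33 (0.206%) from 6 to 28 months and 19 (0.12%) from 12 to 28 months. Sult1a1 was selected on these contrasts, and nothing is read from its place among them.

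Most of the genes with a larger log2FC had few reads. Among the 5839 genes with at least 743 reads, as many as Sult1a1, 8 had a larger log2FC between 6 and 28 months and 28 between 12 and 28 months, where 99% of these genes were below 0.82 and 1.04. For none of these 8, and for none of these 28, did the 3 libraries of 28 months all lie above the 5 younger ones (0 and 0 genes). Of all 5839 genes only 48 had this order, so its absence here says nothing about these genes. In all 8 the shared library exceeded the lowest library of 28 months, and in 7 of the 8 the lowest was sample 2. Of the 28, the same held for 20 and for 22. For Sult1a1, which was chosen for its higher level at 28 months, the shared library was at 6.83 CPM and 28 months sample 2 at 19.3 CPM.

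**Figure D2:**
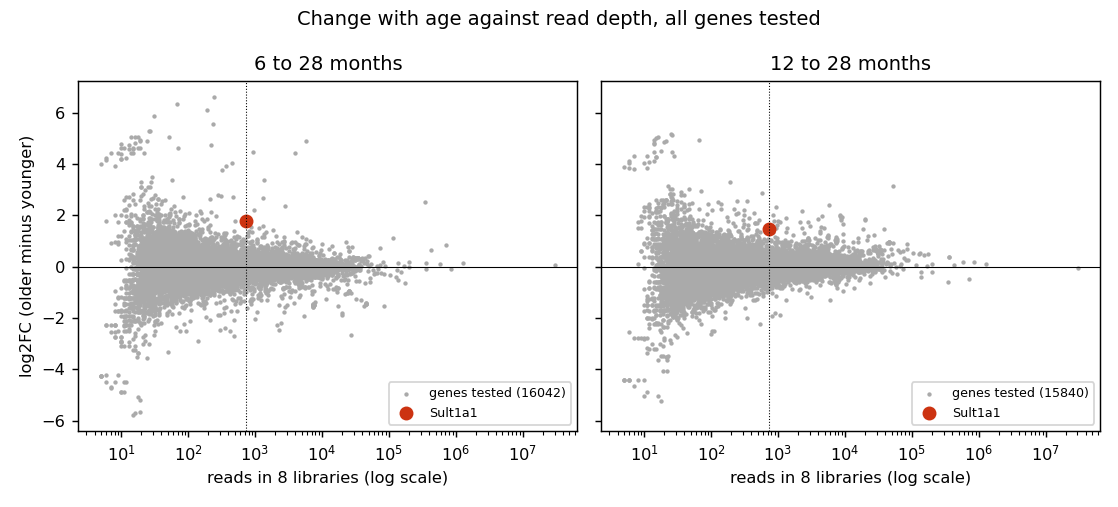
Change with age (y axis, log2FC, older minus younger) against the total reads of each gene over the 8 libraries (x axis, log scale), from 6 to 28 months on the left and from 12 to 28 months on the right. Grey points are the genes tested, the red point is Sult1a1 at 1.78 and 1.47, and the dotted line marks its 743 reads. To the right of that line 8 and 28 genes lie above Sult1a1.

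The gap between the groups can be compared with that of all other genes. Of 16374 genes with at least 5 reads in 1 of the 8 libraries, 150 (0.916%) had all 3 libraries of 28 months above all 5 younger ones, and 208 had them all below. Of the 150, 48 had at least as many reads as Sult1a1. Where the younger libraries held any read, the ratio of the lowest library of 28 months to the highest younger one had a median of 1.04, and 0 other genes reached the 2.43 of Sult1a1. The next largest ratio, 2.21, was that of a gene with 12 reads in all, and among genes with at least as many reads as Sult1a1 the next was 1.19. In 1 further gene, with 7 reads in all, the younger libraries were all at 0. Sult1a1 was chosen for a difference of this kind, so these ranks describe it and do not test it.

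The level of Sult1a1 was also set against other scalings. As CPM of the plain gene-read totals, the libraries of 28 months ranged from 20.9 to 21.5 and the younger ones from 5.75 to 7.93. As CPM of the totals without the most abundant gene, they ranged from 38.4 to 44.0 and from 11.5 to 16.4. The lowest library of 28 months was 2.64 and 2.33 times the highest younger one on these scales, and 2.46 times with RLE size factors.

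Hprt1, a purine salvage enzyme, is one of the genes the study used to normalise its qPCR, and Sult1a1 was counted against it as well. Per 100 hprt1 reads Sult1a1 had 32.8, 29.2 and 28.7 reads at 28 months. It had 14.7 and 8.42 at 6 months, 10.5 and 11.2 at 12 months, and 9.51 in the shared library. The groups again did not overlap, with a smallest ratio of 1.95. The high value of 6 months sample 1 goes with the level of hprt1 itself, which was 46.0 CPM there and from 66.2 to 79.3 CPM in the other libraries. On this scale the mean of 12 months no longer lay above that of 6 months (log2 difference -0.035).

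**Figure D3:**
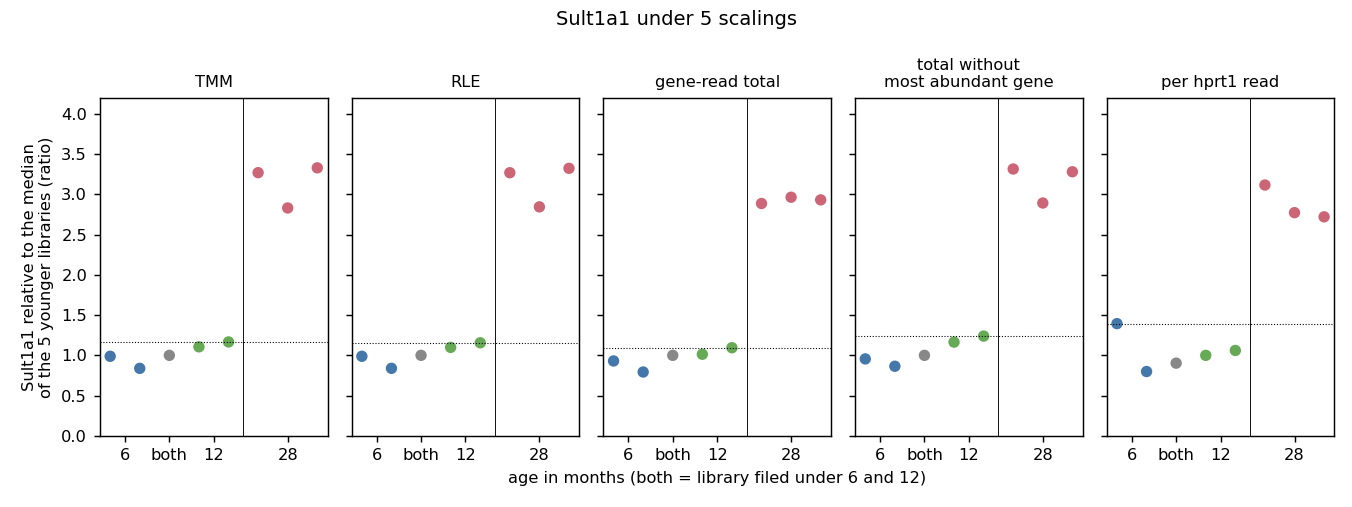
Sult1a1 in the 8 libraries under 5 scalings, each divided by the median of the 5 younger libraries (y axis, ratio), by age in months (x axis). Blue is 6 months, green 12 months, red 28 months and grey the shared library, and the dotted line marks the highest younger library. In each panel the 3 red points lie above that line, and the distance is smallest per hprt1 read, where the lowest red point is 1.95 times the line.

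These are bulk libraries, in which fewer cells of a type and less RNA per cell cannot be told apart, and the same holds for more of either. Of 43 markers of cell types that cortex or tissue beside it could hold, 11 had an identifier paired with their symbol. The neuronal glutamate receptor subunit Gria2 was high in every library, from 934 to 949 CPM at 28 months and from 761 to 961 CPM in the younger libraries. The other 10 markers, of astrocytes, microglia, choroid plexus, pineal, red cells and plasma proteins, summed to between 169 and 243 CPM at 28 months. In the younger libraries they summed to between 252 and 478 CPM, so the sum was lower in all 3 libraries of 28 months. A marker had an identifier only where the study's own lists from these samples named it. The lower sum is therefore no independent evidence. Gfap and Tf made up most of each sum, and single markers did not all follow it. At 28 months Aif1 (2.49 to 3.46 CPM) lay below all younger libraries (4.88 to 8.98 CPM). Cd74 (6.98 to 12.9 CPM) lay above both libraries of 6 months (5.12 and 5.04 CPM). The part of these 10 markers in the level of Sult1a1 was not tested. For oligodendrocytes, vessels and meninges none of the markers listed for them had an identifier, and these cells were not analysed here. Tf was listed as a plasma protein gene, but its level was far above those of Alb, Apob and Gc. Its name is uncertain, as told below, and the cells it came from were not tested.

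The astrocyte filament Gfap was at 52.3 to 77.0 CPM at 28 months and at 72.4 to 155 CPM in the younger libraries, and the microglial marker Aif1 at 2.49 to 3.46 and 4.88 to 8.98 CPM. Cd74, a chaperone of MHC class II molecules, was at 6.98 to 12.9 CPM at 28 months and at 5.04 to 35.9 CPM before. The choroid plexus receptor Lrp2 reached at most 1.06 CPM at 28 months, and the pineal enzyme Tph1, which makes the serotonin precursor there, at most 0.607 CPM. The plasma protein genes Alb, Apob and Gc were at most 1.85 CPM in the libraries of 28 months, with Apob and Gc at 0 reads in sample 3, while the shared library held 7.11, 3.62 and 2.23 CPM and 12 months sample 2 held 7.01, 5.77 and 1.92 CPM. The libraries of 6 months held at most 0.344 CPM of each. The globin LOC689064 was at 17.2 to 29.0 CPM at 28 months and at 22.9 to 64.7 CPM in the younger libraries.

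Of these 11 markers, 4 were called higher from 6 to 12 months (Gfap, Cd74, Alb and Apob). From 6 to 28 months 0 of the 9 tested were called. From 12 to 28 months 3 were called lower (Gfap, Aif1 and Cd74). The background shares given above are 1.2, 0.206 and 0.12%. The median log2FC of the markers tested was 0.88, -0.28 and -1.56. The names of these genes come from lists that the study drew from these samples, so the counts are no independent evidence. The 3 falls from 12 to 28 months were all lost without 28 months sample 3, where 0 of all genes were called. The log2FC of Gfap, Aif1 and Cd74 was then -1.20, -1.56 and -1.68. Leaving out a library of 12 months leaves 1 at that age. Without sample 1 the log2FC was -1.24, -1.58 and -1.98, and without sample 2 it was -1.34, -1.62 and -1.65. Kept as labelled, the shared library puts the same counts in both ages from 6 to 12 months. The quasi-likelihood test then no longer called the 4 rises from 6 to 12 months or the fall of Aif1. The exact test on the same libraries called Cd74 (log2FC 1.40, FDR 0.0379) and Aif1 (log2FC -1.37, FDR 0.0200). The rises of Gfap and Apob were also lost with genes of at least 1 read (FDR 0.0731 and 0.0751). They were lost too in 1 fit over 7 libraries (FDR 0.0832 and 0.0601). Without 12 months sample 2 the log2FC of Apob from 6 to 12 months was 3.17.

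No gene that makes or carries the sulfonate donor, and none of the other sulfotransferases or sulfatases, could be described beside Sult1a1, since 0 of the 32 genes listed for the sulfation pathway were paired with an identifier. Of 19 genes that make, remove or sense amine transmitters, 4 were paired. They are Tph1 and Tph2, which make serotonin's precursor, Qdpr, which regenerates the tetrahydrobiopterin used in making serotonin and catecholamines, and Hrh3, the histamine autoreceptor. Of these, 1 of 4 was called from 6 to 12 months (Hrh3). From 6 to 28 months 0 of 3 tested were called, and from 12 to 28 months 0 of 4. Not being called does not show that a gene stayed the same. The shares called among all genes were 1.2, 0.206 and 0.12%, and with so few genes the counts say nothing about the group. The median log2FC of those tested was -0.35, -1.26 and -0.84. Their names have the same origin, so this too is no independent evidence.

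Qdpr was at 88.4, 69.4 and 78.1 CPM at 28 months, at 161 and 142 CPM at 6 months, at 128 and 154 CPM at 12 months and at 148 CPM in the shared library. All libraries of 28 months lay below all younger ones, the reverse of the order in Sult1a1. Its log2FC of -0.95 (SE 0.17, FDR 0.0586, edgeR) between 6 and 28 months and of -0.83 (SE 0.17, FDR 0.0990) between 12 and 28 months did not pass the threshold. Over the alternatives with at least 2 libraries an age the FDR ranged from 0.000160 to 0.587 and from 0.00590 to 0.394. Both comparisons passed with DESeq2 (0.000160 and 0.00590) and with genes of at least 1 read (0.00142 and 0.0103). Both also passed without 28 months sample 1 (0.0185 and 0.0142). Neither passed with RLE, with the shared library kept as labelled or by the exact test. From 6 to 28 months alone it passed with at least 10 reads in every library (0.0494) and in 1 fit over 7 libraries (0.0388).

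Hrh3 fell by 2.39 on the log2 scale from 6 to 12 months (SE 0.35, FDR 0.0138, edgeR). It was at 38.7 and 18.3 CPM at 6 months, at 5.56 and 5.36 CPM at 12 months, at 4.74 CPM in the shared library, and at 11.1, 17.1 and 7.43 CPM at 28 months. The ages 6 and 12 months are apart in Hrh3 and close in Sult1a1. Over the alternatives with at least 2 libraries an age the FDR of Hrh3 ranged from 1.85e-07 (DESeq2) to 0.997. The highest came from the quasi-likelihood test with the shared library kept as labelled, at a log2FC of -1.99, and the exact test on the same libraries gave an FDR of 0.000932 at -1.98. Tph2 was at 0.988 to 2.07 CPM at 28 months and at 0.428 to 4.53 CPM in the younger libraries. Tph1 held 147 of its 166 reads in the shared library, in which Sult1a1 was at the median of the younger libraries.

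The pattern of Sult1a1 over the 8 libraries was set beside that of 11716 genes with a mean of at least 2 CPM, by Pearson's r of log2(CPM + 0.5). The libraries are shared by all genes, and r is given as a description only. It was over 0.9 for 4 genes and under -0.9 for 7. The highest were ENSRNOG00000025338 (r = 0.965) and ENSRNOG00000038330 (r = 0.953), whose mean at 28 months was only 1.37 and 1.32 times that of the younger libraries. The lowest were ENSRNOG00000018123 (r = -0.961) and, among the named, Qdpr (r = -0.934), the only gene with a name among the 10 highest and the 10 lowest.

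Among the genes with a name that are described here, the highest r were those of Heph, a copper-dependent iron oxidase (0.689, at place 148 of all genes), and of a locus named only as a miRNA, ENSRNOG00000045400 (0.657, at place 206). Heph was at 16.9, 16.4 and 14.1 CPM at 28 months, at 11.5 and 13.1 CPM at 6 months, at 8.70 and 6.87 CPM at 12 months and at 6.55 CPM in the shared library. Its highest younger libraries are those of 6 months, where Sult1a1 was lowest. The lowest r among the named belonged to Qdpr (-0.934), Aif1 (-0.778) and Tf, the iron carrier transferrin (-0.744). The identifier paired with Tf also carries the description of a signal recognition particle receptor subunit, so that its name is uncertain. It was at 84.8, 127 and 110 CPM at 28 months and at 128 to 209 CPM in the younger libraries. Without the shared library r was 0.661 for Heph, and 3 of the 10 genes with the highest r stayed among the 10 highest.

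**Figure D4:**
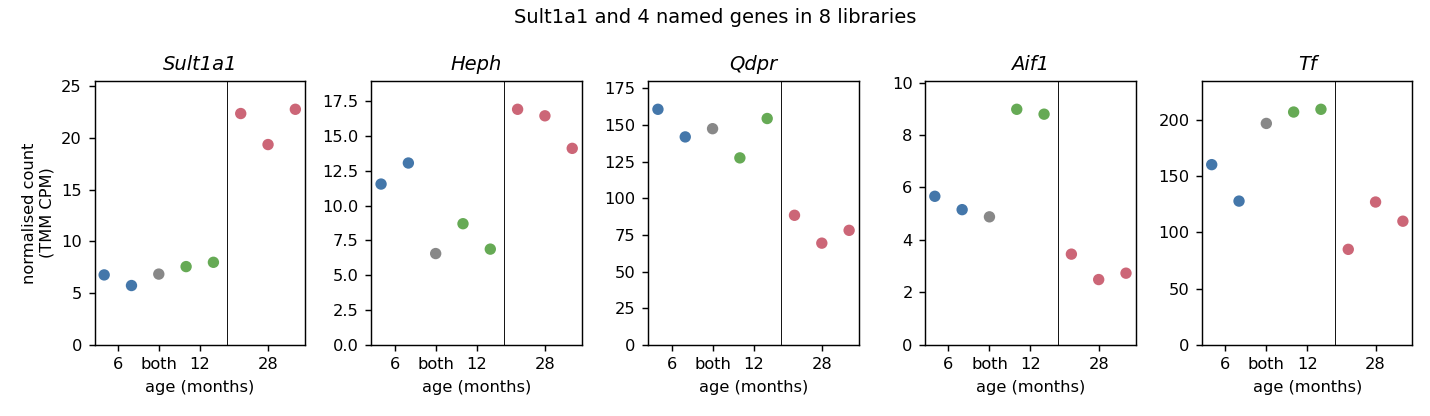
Normalised counts (y axis, TMM CPM, each panel from 0 on its own scale) of Sult1a1, of Heph, whose r with it was 0.689, and of Qdpr, Aif1 and Tf, the least like it among genes with a name, in the 8 libraries by age in months (x axis). Blue is 6 months, green 12 months, red 28 months, grey the shared library, and the vertical line divides 28 months from the younger libraries. The red points lie above all younger libraries in Sult1a1 and Heph. In Qdpr, Aif1 and Tf they lie below them, with the smallest distance in Tf (127 against 128). The genes beside Sult1a1 were chosen for a high or low r over these libraries, so this separation is no evidence. Of 16374 genes, 150 lay above all younger libraries at 28 months and 208 below.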

How the data were processed

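The authors mapped SOLiD reads to the Ensembl release 65 rat genome (RGSC 3.4, rn4 in the submitters' notes) with Bowtie and counted them per gene with HTSeq, and the deposited values are these raw counts, not normalised. Program versions and the strand setting are not given in the sources used here, so reads of overlapping or antisense genes may be split or lost. The lines of reads on no gene (47.5 to 60.0% of mapped reads) were left out.

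Levels are CPM after TMM over the 8 libraries. Each pair of ages was fitted with the quasi-likelihood test of edgeR 4.0.16 (R 4.3.3) over genes with at least 5 reads in 1 library compared, with Benjamini-Hochberg FDR. The SE of a log2FC was worked back from this test, as its absolute value divided by the square root of the F statistic. The study compared ages pairwise with edgeR's exact test, which was run as an alternative. Other alternatives were DESeq2 1.42.0, RLE, library totals with and without the most abundant gene, 2 filters, 1 fit over 7 libraries, each library left out, and, added after seeing the data, scaling on hprt1. The fits were tested on simulated data.

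Sult1a1, the gene lists and the tests were chosen with earlier results of these data known. Genes named are Sult1a1, every list or marker gene with an identifier, the named genes among the 10 highest and 10 lowest r, the 3 named genes highest and lowest in r, and at most 2 unnamed identifiers of each sign. Names came from the study's supplementary lists, which pair 148 identifiers, and the RefSeq gene table pairs 0. A result that falls under this rule but is withheld is not reported here. The study's own fold changes and p-values were not used.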

Additional observations from a re-analysis of the deposited data

How the results depend on the processing

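The log2FC of Sult1a1 kept its direction in the 3 comparisons under each alternative but 1: per hprt1 read it was -0.035 from 6 to 12 months and 1.44 from 6 to 28 months. With each library left out in turn it ran from 0.19 to 0.44 (6 to 12 months), 1.67 to 1.91 (6 to 28) and 1.43 to 1.54 (12 to 28). Of the 10 genes with the highest r, 3 stayed without the shared library and 3 with Spearman's rho.

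The counts of genes called moved more. With the shared library kept as labelled, the same counts stand in both ages from 6 to 12 months. The counts of genes called were then 0 (485 at an unadjusted p under 0.05, against 82 by the exact test), 18 and 9 (4 higher, 5 lower). With genes of at least 1 read they were 112, 199 (79 higher, 120 lower) and 139 (101 higher, 38 lower). The exact test gave 82 from 6 to 12 months and 50 from 12 to 28 months, and DESeq2 gave 70 from 6 to 28 months (12 higher, 58 lower) and 82 from 12 to 28 months (62 higher, 20 lower). Leaving out 1 library gave 360 to 883, 0 to 137 and 0 to 142. The 0 came without 28 months sample 3 in both comparisons (549 and 870 genes at an unadjusted p under 0.05, against 70 and 82 calls by DESeq2 on all libraries) and without 12 months sample 2 from 12 to 28 months (918). The cause was not tested.

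From 6 to 28 months, 3 marker genes turned direction with the shared library kept as labelled, by edgeR's quasi-likelihood and exact tests: Cd74 (-0.28 and -0.29), Alb (-0.96 and -1.01) and Apob (-1.01 and -1.08). With 1 library left out, direction turned for Tph2 (-3.08 to 0.26 from 6 to 12 months, -1.70 to 1.65 from 12 to 28), Qdpr (-0.25 to 0.012, 6 to 12), Gria2 (-0.22 to 0.13, 6 to 12, and -0.026 to 0.31, 12 to 28) and Lrp2 (-0.16 to 2.72, 6 to 12, and -1.83 to 1.17, 6 to 28). DESeq2 gave no adjusted p for some list genes with few reads, Apob from 6 to 12 months among them, and these are not counted as lost calls. No paired analysis was possible because the labels number the samples within an age and link none across ages. With 50 to 62 reads in each library fitted and 2 libraries an age, the log2FC of Sult1a1 between 6 and 12 months had an SE of 0.24.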
